A study of Mus musculus with 12 samples.

Results

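The genes of synaptic vesicles and of the machinery that releases them were read in whole cochleae of Dusp1-/- (KO) and wild-type (WT) mice. They are 46 genes taken by symbol from a list, out of 23905 genes with usable values, and every one of the 46 was found. RNA-seq gave 12 libraries in 4 groups of 3: KO at 8 months (F5, F6 and F27), WT at 8 months (F1, F10 and F12), KO at 5 months (E7, F18 and F19) and WT at 5 months (E1, E3 and E4). The codes are those of the labels, all mice had the mixed 129S2/SvPas:C57BL/6 background, and the study's methods give the ages as 32 and 20 weeks. Dusp1, a phosphatase that switches off stress-activated MAP kinases, is deleted in the whole KO animal. Levels are FPKM, fragments counted per transcript length and per mapped library size, which may be compared between genes since they are scaled to transcript length.

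A presynaptic ending packs transmitter into vesicles, primes them at the active zone and fuses them when calcium enters. The SNARE proteins of vesicle and plasma membrane zip together to drive fusion, synaptotagmins sense the calcium, and the spent membrane is taken back by dynamin-driven endocytosis. In the cochlea the sensory hair cells use a ribbon synapse built from partly different parts, with otoferlin and the vesicular glutamate transporter Slc17a8, whereas the genes listed here are mostly those of conventional endings. The cell bodies of the spiral ganglion, the afferent neurons of the ear, lie inside the dissected tissue and transcribe many of them for endings in the brainstem, while efferent endings in the cochlea are supplied by cell bodies that lie in the brainstem.

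The RefSeq promoter table (build GRCm38.p6) held 36 of the 46 genes, and 4 stretches are printed, each the 250 bases before a start. Slc17a6 is shown because it had the smallest p at 5 months, Snap91 because it was lower in KO at both ages, Syn1 because it alone held the full cyclic AMP response element (CRE), and Rab3a because it held both of the other motifs marked. Capitals mark the CRE TGACGTCA or its core TGACG, the target of CREB-type factors, and the GC box GGGCGG bound by Sp1-type factors, read on either strand.
Slc17a6 (chr7:51621580-51621829, plus strand): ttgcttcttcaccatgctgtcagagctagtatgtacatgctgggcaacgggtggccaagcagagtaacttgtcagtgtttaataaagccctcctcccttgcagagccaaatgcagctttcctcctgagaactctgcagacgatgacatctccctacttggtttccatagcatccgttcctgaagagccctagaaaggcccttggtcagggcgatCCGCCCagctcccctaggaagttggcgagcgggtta
Snap91 (chr9:86880709-86880958, minus strand): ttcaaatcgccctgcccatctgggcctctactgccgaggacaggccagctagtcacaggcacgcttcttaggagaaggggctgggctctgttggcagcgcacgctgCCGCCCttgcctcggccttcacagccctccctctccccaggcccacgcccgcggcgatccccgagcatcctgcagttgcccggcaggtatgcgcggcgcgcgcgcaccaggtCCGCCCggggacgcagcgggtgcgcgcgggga
Syn1 (chrX:20920919-20921168, minus strand): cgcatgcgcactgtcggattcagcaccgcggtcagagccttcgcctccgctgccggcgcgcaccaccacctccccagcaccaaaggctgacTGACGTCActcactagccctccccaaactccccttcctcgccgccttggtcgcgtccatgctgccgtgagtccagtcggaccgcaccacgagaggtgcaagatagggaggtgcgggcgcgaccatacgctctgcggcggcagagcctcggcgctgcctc
Rab3a (chr8:70754453-70754702, plus strand): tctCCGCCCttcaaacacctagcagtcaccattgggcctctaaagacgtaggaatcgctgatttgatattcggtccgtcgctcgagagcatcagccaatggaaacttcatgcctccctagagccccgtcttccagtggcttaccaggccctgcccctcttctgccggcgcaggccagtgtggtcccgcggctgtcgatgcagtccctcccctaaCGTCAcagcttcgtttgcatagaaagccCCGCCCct

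Over all starts listed for a gene, the GC box stood in the 250 bases before a start in 25 of 36 genes (69.4%), against 35.4% of all 27025 genes in the table. The core TGACG stood in 8 genes (22.2%, against 19.8% of all genes), and the full CRE, which contains the core on both strands, in Syn1 alone (2.78%, against 1.77%). In Syn1 the CRE began 159 bases before the start. The CCAAT box, read as CCAAT on either strand, was found in 12 genes (33.3%, against 37.5%), and the TATA box TATAAA in Sv2b alone (2.78%, against 14.3%). These are letter matches, which show neither binding nor use of a site.

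The targeted gene was read first. Dusp1 had 55.6, 73.8 and 57.1 FPKM in KO and 43.0, 38.3 and 38.6 FPKM in WT cochleae at 8 months. At 5 months it had 61.9, 81.5 and 75.3 FPKM in KO and 60.8, 47.6 and 29.5 FPKM in WT cochleae. At both ages every library labelled KO thus had more Dusp1 signal than every library labelled WT. FPKM are summed over the whole gene, which cannot show whether a transcript is interrupted, and the libraries are therefore named by their labels. FPKM added up to 500315 to 583069 per library. No read numbers were at hand, and the depth behind single values is unknown. From Xist, females numbered 2 of 3 in KO at 8 months, 1 of 3 in WT at 8 months, 0 of 3 in KO at 5 months and 1 of 3 in WT at 5 months. Whether each code is 1 animal or a pool is not stated, so p-values measure only the spread between these samples, which may be partly technical.

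One WT library of 5 months, E1, stood apart in many of these genes, though not in them alone, and was kept in the main fit. E1 had the highest value of the 12 libraries in 32 of the 46 genes, against 16.6% of all 16266 genes tested, and more than 2 times the next library in 9 of them, against 1.3% of all genes. Slc32a1, the vesicular transporter of GABA and glycine, had 10.4 FPKM in E1 and 0.0188 to 0.126 FPKM in the other 11 libraries. Doc2b had 4.05 FPKM in E1 and 0.238 to 0.394 FPKM elsewhere. These are the only members whose mean over the 12 libraries reached the filter of 0.5 FPKM through E1 alone. The 12 markers of brain neurons that were listed summed to 215 FPKM in E1 and to 23.2 to 39.3 FPKM in the other libraries, with Gabra6 at 43.0 FPKM in E1 and at most 0.266 FPKM elsewhere, and Chat listed at 0 in E1. The counts of the 46 genes at 5 months are therefore given with E1 and without it.

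**Figure D1:**
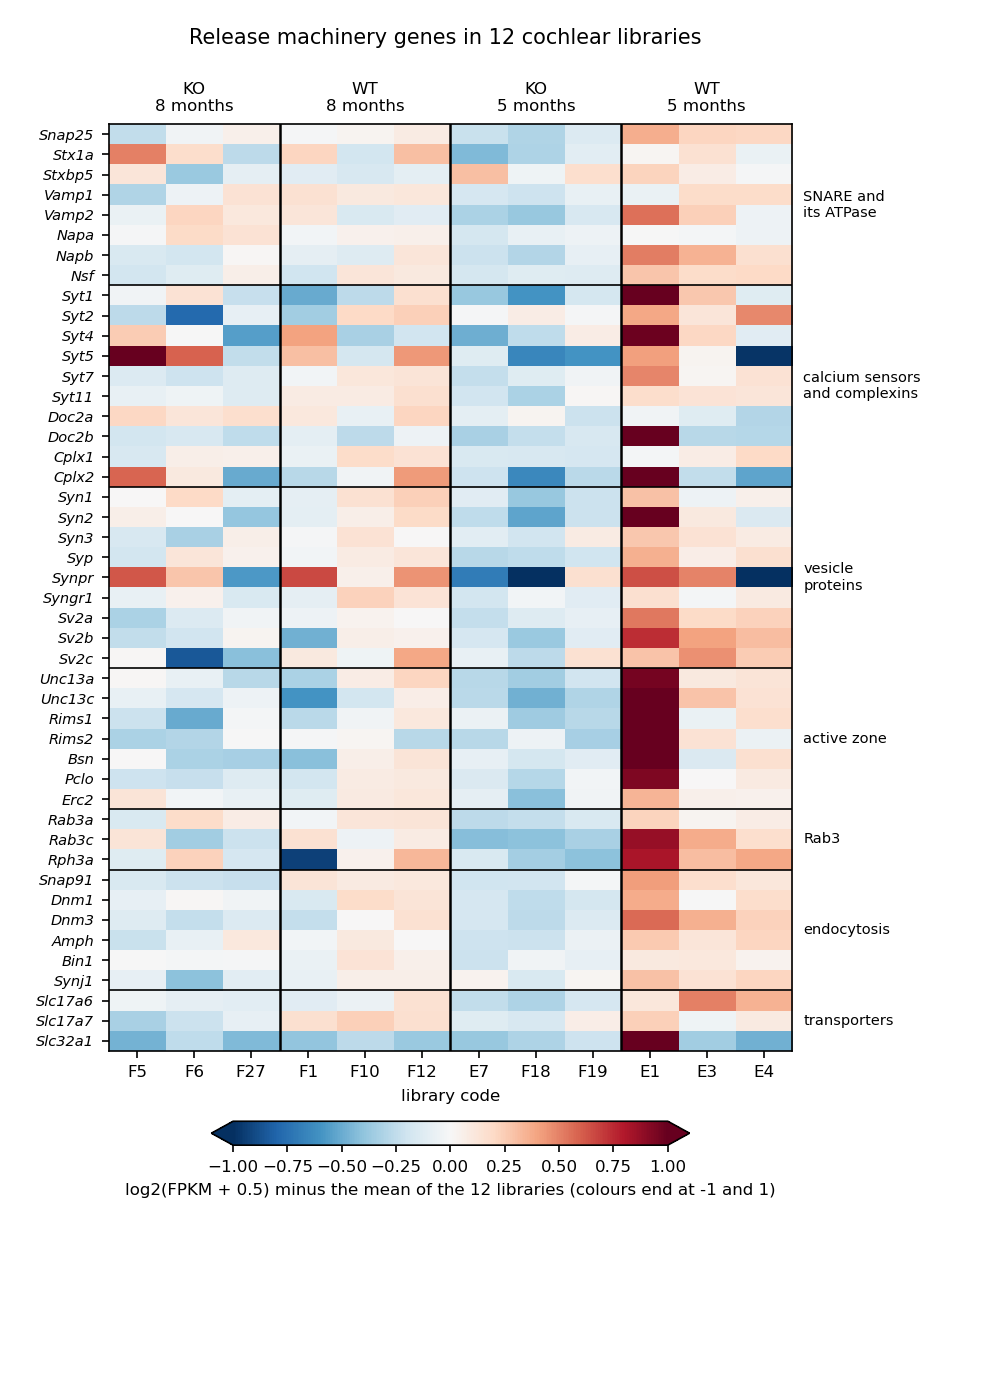
The 46 genes (rows, by role) in the 12 libraries (columns, KO left of WT at each age), coloured by log2(FPKM + 0.5) minus the gene's mean over the libraries, with red higher, blue lower and colours ending at -1 and 1. At 5 months E7 and F18 each lay below the mean in 44 of 46 genes and F19 in 38, while E1 lay above it in all but 4.

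Levels ran from over 100 FPKM for parts of the fusion complex to a few FPKM for scaffolds of the active zone. Averaged over the 12 libraries, 6 of the 46 genes reached 100 FPKM (Snap25, Cplx1, Vamp1, Rab3a, Vamp2 and Syp), 17 lay between 20 and 100 FPKM, 10 between 5 and 20 FPKM, and 13 under 5 FPKM. Snap25, the plasma membrane SNARE, led with 548 FPKM. Cplx1, a complexin that clamps and then promotes fusion, followed with 256 FPKM and Vamp1, a vesicle SNARE, with 228 FPKM. All 7 active zone genes were under 5 FPKM. Together the 46 genes made up 0.413 ± 0.034% of all FPKM in KO and 0.459 ± 0.016% in WT cochleae at 8 months, and 0.387 ± 0.027% in KO and 0.540 ± 0.049% in WT cochleae at 5 months (SD, n = 3 each). At 5 months the 3 KO libraries lay at 0.366 to 0.418% and the 3 WT libraries at 0.511 to 0.596%, with no overlap. In bulk RNA, fewer cells of a type cannot be told apart from less RNA per cell.

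At 5 months the release machinery was lower in KO cochleae as a broad, moderate shift in which no single gene passed the adjusted test. The limma test with Benjamini-Hochberg adjustment over all 16266 genes called 0 of 46 members lower and 0 higher at adjusted p under 0.05, against 0.043% and 0.0246% of all genes, and the smallest adjusted p of a member was 0.111. At unadjusted p under 0.05, 30 of 46 were lower and 0 higher, against 9.92% and 8.24% of all genes. The log2 change was below 0 in 44 of 46, against 55.3% of all genes, with a median of -0.41 against -0.027 over all genes. The 44 include Slc32a1 and Doc2b, which passed the filter through E1 alone and whose sign turned without it. All 3 KO values lay below all 3 WT values in 33 of 46 genes and above them in 0, against 13.8% and 11.3% of all genes. The 2 genes not below 0 were Stxbp5, a tomosyn that holds back SNARE pairing, at 0.043 ± 0.13, and Doc2a at 0.053 ± 0.13.

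Without E1 the shift was smaller and still broad. Then 21 of 46 genes were lower at unadjusted p under 0.05 and 0 higher, against 6.34% and 5.57% of all genes. The change was below 0 in 40, against 54.8% of all genes, and the median was -0.28 against -0.023. The 21 were all among the 30 found with E1, and the 9 that no longer passed were Syt1, Syn1, Syn2, Rims1, Rims2, Pclo, Erc2, Rph3a and Synj1. Leaving out a WT library cannot make separate groups overlap, so the 33 genes below WT without overlap had to remain. No member joined them, while the share over all genes rose to 18.3%. For 18 genes the size of the change moved by more than 1.5 times, and in Syt5, Doc2b, Cplx2 and Slc32a1 the sign turned. At 5 months all WT libraries are coded E, while KO libraries F18 and F19 are coded F, so letter and genotype are partly mixed. Within the libraries coded E, the single KO library E7 lay below E1, E3 and E4 in 38 of 46 genes, against 35.9% of all genes. E7 also had the highest share of neutrophil markers of the 12 libraries, 4.2% of all FPKM. A single KO library cannot tell letter and genotype apart.

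**Figure D2:**
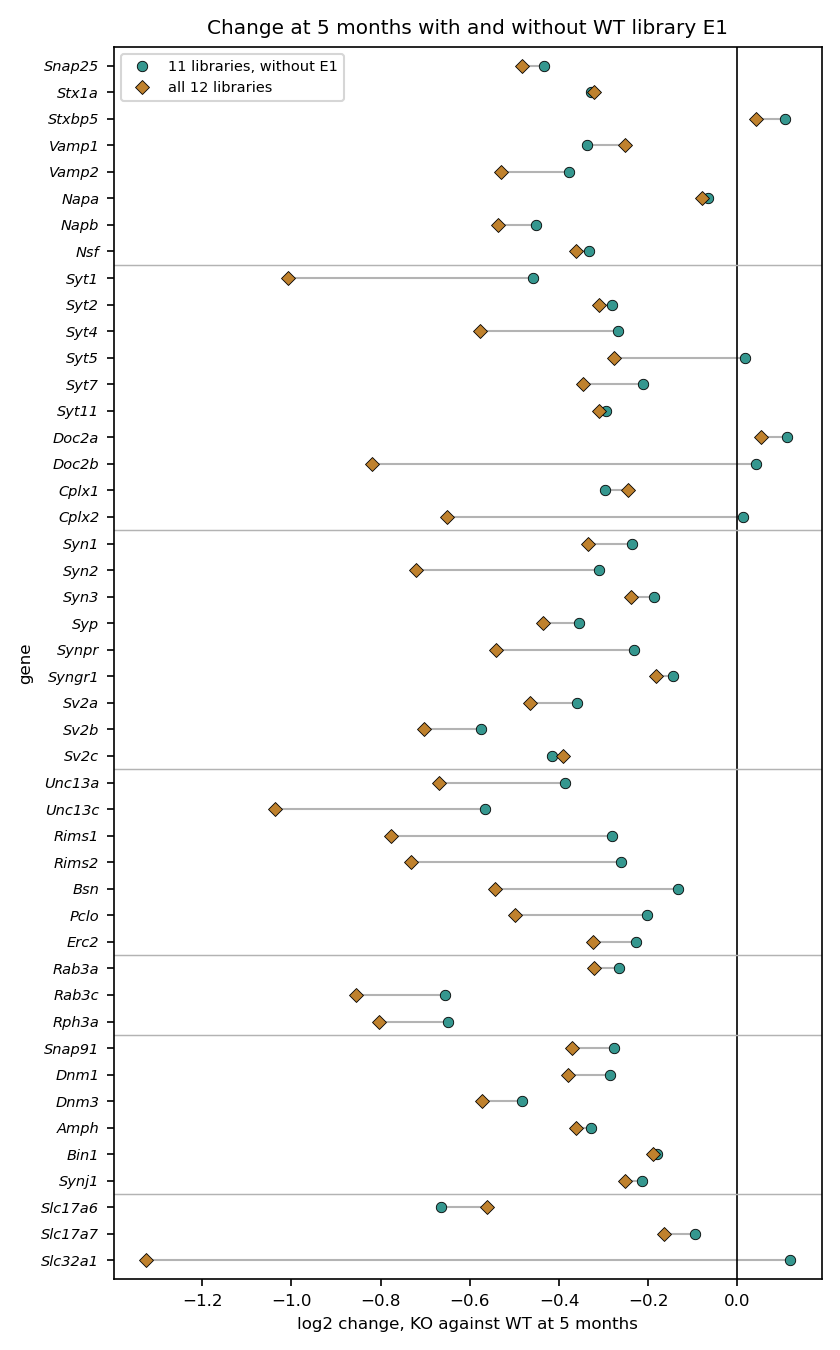
The log2 change of KO against WT at 5 months (horizontal axis) for each gene (rows, by role), with all 12 libraries (diamonds) and without WT library E1 (circles). Syt5, Doc2b, Cplx2 and Slc32a1 cross 0 without E1, while Snap25, Napb, Syt11 and Slc17a6 stay below -0.28 in both.

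**Figure D3:**
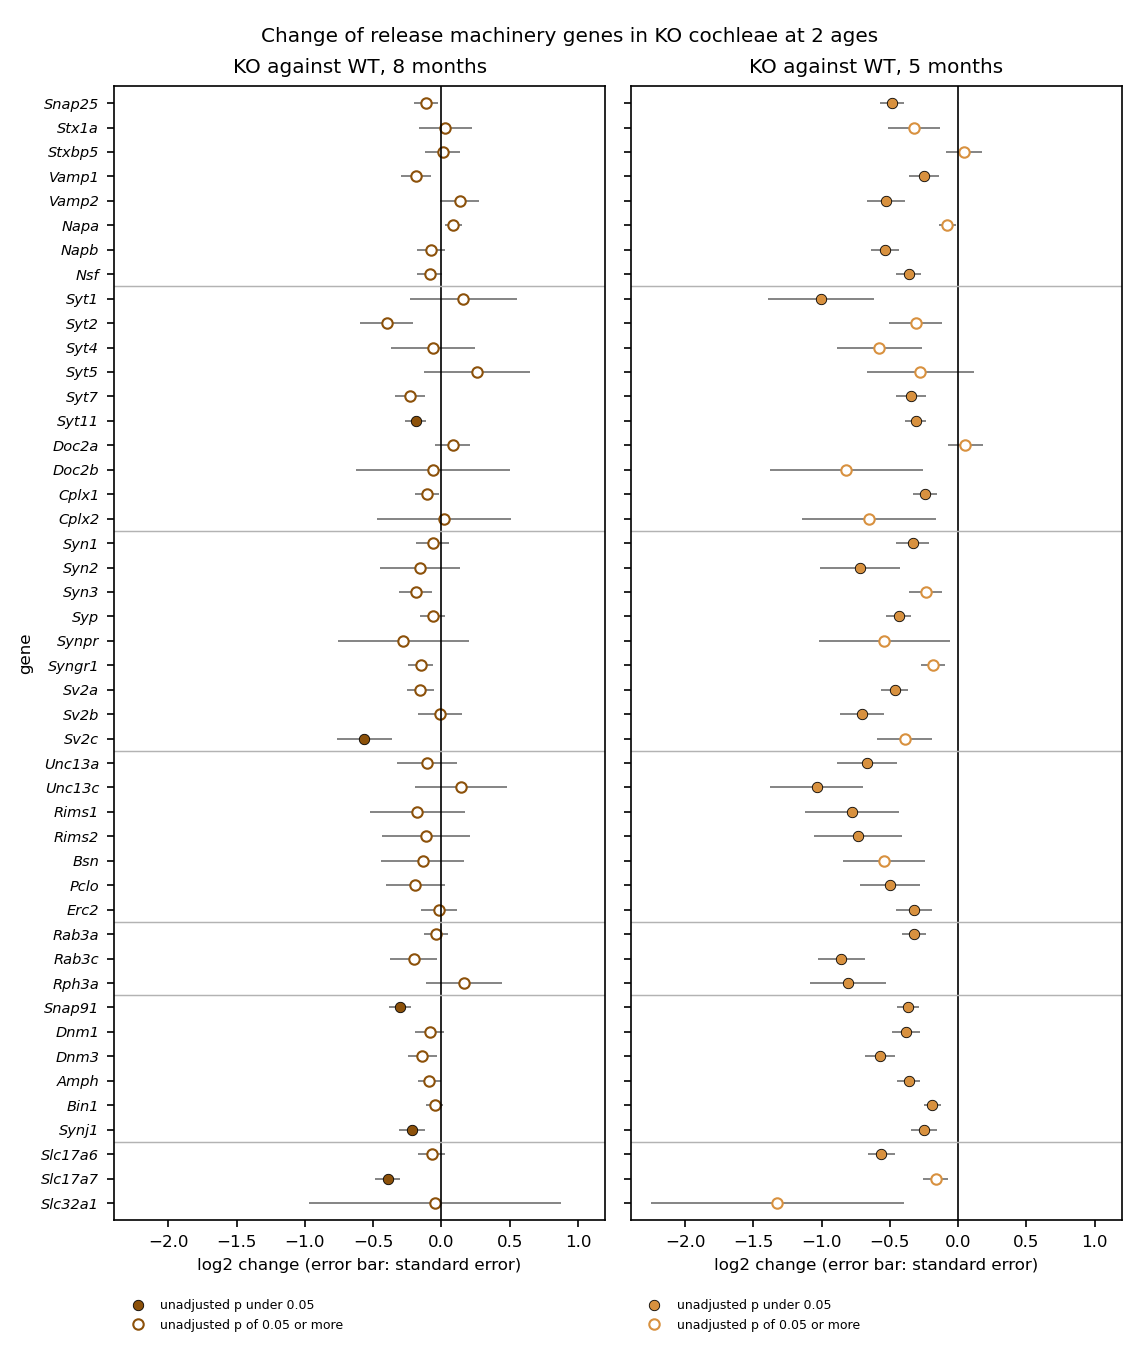
The log2 change of KO against WT with its standard error for each gene (rows, by role) at 8 months (left) and at 5 months (right), filled where the unadjusted p was under 0.05. At 5 months 30 genes are filled, all below 0, and at 8 months 5 are filled.

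Among the 8 SNARE genes and their recycling enzymes, 5 were lower in KO at 5 months at unadjusted p under 0.05. The share over all genes was 9.92%. The median log2 change of the 8 was -0.34, and -0.34 without E1. Snap25 (chromosome 2, 136539186 to 136608164 on the plus strand of mm9) had 457, 529.8 and 562 FPKM in KO and 539, 554 and 574 FPKM in WT cochleae at 8 months, and 466, 439 and 493 FPKM in KO and 698, 631 and 626 FPKM in WT cochleae at 5 months. At 5 months the highest KO library was below the lowest WT library, and the KO mean was 71.5% of the WT mean (74.15% without E1). The change at 5 months was -0.48 ± 0.088 on the log2 scale (adjusted p = 0.115), at 8 months -0.11 ± 0.088. Vamp2, the main vesicle SNARE of brain synapses, had 119, 144 and 133 FPKM in KO and 135, 111 and 114 FPKM in WT cochleae at 8 months, and 99.6, 95.3 and 111 FPKM in KO and 181, 146 and 119.9 FPKM in WT cochleae at 5 months. Its KO libraries were below all WT libraries at 5 months, whereas at 8 months the groups overlapped and all 3 KO libraries were above F10 and F12. Vamp1, which serves fast synapses of brainstem and muscle, had 184, 219 and 251 FPKM in KO and 252, 243 and 245 FPKM in WT cochleae at 8 months, and 202, 196 and 215 FPKM in KO and 216, 258 and 258 FPKM in WT cochleae at 5 months. In Vamp1 the lowest WT value of 5 months was that of E1, and the change was -0.34 ± 0.11 without it and -0.25 ± 0.11 with it.

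Napb, the neuronal form of alpha-SNAP that couples SNAREs to their ATPase, had 40.5, 39.6 and 45.5 FPKM in KO and 42.3, 41.3 and 49.2 FPKM in WT cochleae at 8 months, and 38.7, 36.6 and 42.7 FPKM in KO and 64.5, 57.6 and 50.4 FPKM in WT cochleae at 5 months. Its groups did not overlap at 5 months, with a change of -0.54 ± 0.10 (adjusted p = 0.124). Napa, the form found in all tissues, had a change of -0.079 ± 0.062, with 74.9, 80.5 and 81.9 FPKM in KO and 84.9, 83.7 and 82.0 FPKM in WT cochleae at 5 months, so the neuronal form lay further below WT than the general one. The difference between Napb and Napa was not tested. Nsf, the ATPase itself, had 74.6, 77.9 and 88.6 FPKM in KO and 73.8, 92.2 and 90.6 FPKM in WT cochleae at 8 months, and 74.9, 77.8 and 77.5 FPKM in KO and 103, 96.1 and 97.6 FPKM in WT cochleae at 5 months. The KO libraries of 5 months were within 74.9 to 77.8 FPKM, all below the WT libraries, and at 8 months WT library F1 was below all KO libraries while F10 and F12 were above them. Stx1a, the syntaxin partner of Snap25, measured 3.03, 3.38 and 3.96 FPKM in KO and 4.38, 4.84 and 4.09 FPKM in WT cochleae at 5 months, without overlap and with a change of -0.32 ± 0.19.

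Among calcium sensors and complexins, 4 of 10 genes were lower in KO at 5 months at unadjusted p under 0.05, 3 of 10 without E1. Over all genes the shares were 9.92% and 6.34%. Syt11, a synaptotagmin that does not bind calcium, had 73.4, 75.0 and 70.4 FPKM in KO and 81.6, 81.9 and 86.2 FPKM in WT cochleae at 8 months, and 67.5, 61.9 and 77.8 FPKM in KO and 87.3, 85.0 and 84.0 FPKM in WT cochleae at 5 months. KO was below WT without overlap at both ages, with changes of -0.19 ± 0.075 at 8 months and -0.31 ± 0.075 at 5 months. Cplx1 had 228, 265 and 264 FPKM in KO and 243, 289 and 281 FPKM in WT cochleae at 8 months, and 228, 228 and 227 FPKM in KO and 252, 268 and 293 FPKM in WT cochleae at 5 months. The 3 KO libraries of 5 months were nearly equal and all below WT, and at 8 months the groups overlapped. Syt7, a slow sensor of asynchronous release, did not overlap at either age either, with 18.4, 17.5 and 18.5 FPKM in KO and 19.9, 22.0 and 22.3 FPKM in WT cochleae at 8 months and 17.2, 18.7 and 19.8 FPKM in KO and 28.6, 20.6 and 22.6 FPKM in WT cochleae at 5 months.

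Syt1, the fast calcium sensor of forebrain synapses, had a change of -1.01 ± 0.39 at 5 months, and of -0.46 ± 0.21 without E1, where it was 41.1 FPKM. Syt2, its counterpart at fast brainstem synapses, had 26.5, 28.2 and 26.5 FPKM in KO and 35.1, 29.1 and 37.4 FPKM in WT cochleae at 5 months, without overlap, and a change of -0.31 ± 0.19. Cplx2, the second complexin, had a change of -0.65 ± 0.49 with E1 and of 0.012 ± 0.31 without it. Syt4 and Syt5, synaptotagmins also found on other secretory vesicles, and Doc2a and Doc2b, sensors of spontaneous release, had p of 0.05 or more in both forms of the comparison, with changes without E1 of -0.27, 0.017, 0.11 and 0.042.

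All 9 genes of vesicle proteins had a log2 change below 0 at 5 months, with and without E1, against 55.3% and 54.8% of all genes. At unadjusted p under 0.05, 5 of 9 were lower, 3 without E1, against 9.92% and 6.34% of all genes. Sv2b, one of 3 vesicle glycoproteins that set how ready vesicles are for release, had 13.0, 13.5 and 15.7 FPKM in KO and 10.9, 16.1 and 15.9 FPKM in WT cochleae at 8 months, and 13.7, 11.8 and 14.2 FPKM in KO and 26.0, 20.6 and 19.2 FPKM in WT cochleae at 5 months. The 5-month KO values were all below WT, with a change of -0.70 ± 0.16 (adjusted p = 0.146), and of -0.58 ± 0.16 without E1. The 8-month groups overlapped with a change of -0.012 ± 0.16. Sv2a, the most widely used form and the target of the drug levetiracetam, had 31.4, 35.6 and 38.2 FPKM in KO and 37.8, 40.0 and 39.2 FPKM in WT cochleae at 8 months, and 33.2, 35.8 and 36.9 FPKM in KO and 56.7, 44.7 and 45.9 FPKM in WT cochleae at 5 months. It was below WT without overlap at 5 months, and at 8 months the highest KO library, F27, exceeded the lowest WT library, F1. Sv2c had 9.21, 4.83 and 6.71 FPKM in KO and 9.80, 8.83 and 12.1 FPKM in WT cochleae at 8 months, and 8.66, 7.52 and 10.2 FPKM in KO and 11.2, 12.7 and 10.96 FPKM in WT cochleae at 5 months. Its change was -0.56 ± 0.20 at 8 months and -0.39 ± 0.20 at 5 months, with F6 the lowest of the 12 libraries.

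Syp, synaptophysin, the membrane protein most often used to mark vesicles, had 99.9, 123 and 117 FPKM in KO and 112, 120.0 and 123 FPKM in WT cochleae at 8 months, and 93.7, 95.0 and 99.1 FPKM in KO and 146, 119 and 127 FPKM in WT cochleae at 5 months. KO was below WT in every pair of libraries at 5 months, at 73.5% of the WT mean (78.0% without E1). The groups overlapped at 8 months. The synapsins, which tether vesicles in the reserve pool, had changes at 5 months of -0.33 ± 0.12 for Syn1, -0.72 ± 0.29 for Syn2 and -0.24 ± 0.12 for Syn3, and without E1 of -0.24 ± 0.12, -0.31 ± 0.16 and -0.19 ± 0.13. Syngr1, a synaptogyrin of the vesicle membrane, had a change of -0.18 ± 0.090 at 5 months, without overlap of the groups. Synpr, synaptoporin, a relative of synaptophysin, spread widely within groups, with 5.12, 3.997 and 9.70 FPKM in KO and 13.7, 12.3 and 3.85 FPKM in WT cochleae at 5 months, and no difference could be read from it.

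The active zone scaffolds had a median change of -0.67 over 7 genes at 5 months with E1, and -0.26 without it. With E1 6 of 7 were lower at unadjusted p under 0.05, against 9.92% of all genes. Without E1 2 of 7 were lower, Unc13a and Unc13c, against 6.34% of all genes. Unc13a, which primes vesicles for fusion, had 3.96, 3.72 and 3.15 FPKM in KO and 3.06, 4.18 and 4.64 FPKM in WT cochleae at 8 months, and 3.16, 2.99 and 3.38 FPKM in KO and 8.13, 4.25 and 4.35 FPKM in WT cochleae at 5 months. E1 was at 8.13 FPKM and E3 and E4 at 4.25 and 4.35 FPKM, all above the KO values of 5 months. Unc13c, a priming factor best known from cerebellar granule cells, measured 1.09, 0.881 and 1.06 FPKM in KO and 5.45, 1.84 and 1.63 FPKM in WT cochleae at 5 months, with a change of -0.57 ± 0.19 without E1. Rims1, Rims2, Bsn, Pclo and Erc2, which hold calcium channels and vesicles at the release site, had changes of -0.28 to -0.13 without E1, and E1 had 4.01 to 9.47 FPKM of each, above every other library.

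Rab3 proteins are small GTPases that bring vesicles to the active zone, and rabphilin (Rph3a) is one of their effectors. The 3 genes had changes at 5 months of -0.86 ± 0.17 for Rab3c, -0.80 ± 0.28 for Rph3a and -0.32 ± 0.090 for Rab3a. Each was below WT without overlap. Without E1 the changes were -0.66 ± 0.14, -0.65 ± 0.31 and -0.27 ± 0.097, and Rph3a no longer passed unadjusted p under 0.05. Rab3c had 8.22, 5.78 and 6.37 FPKM in KO and 8.38, 7.20 and 7.92 FPKM in WT cochleae at 8 months, and 5.44, 5.496 and 5.86 FPKM in KO and 14.1, 9.79 and 8.46 FPKM in WT cochleae at 5 months. The 3 KO libraries of 5 months were close to each other, and the adjusted p was 0.129. Rab3a had 134, 169 and 157 FPKM in KO and 147, 162 and 163 FPKM in WT cochleae at 8 months, and 125, 126 and 134 FPKM in KO and 174, 152 and 157 FPKM in WT cochleae at 5 months. Its KO values of 8 months, 134 to 169 FPKM, spanned the whole range of WT at that age, 147 to 163 FPKM. Rph3a had 17.9, 22.9 and 17.3 FPKM in KO and 9.95, 20.1 and 24.6 FPKM in WT cochleae at 8 months, where F1 was the lowest of the 12 libraries, and 17.4, 15.3 and 14.5 FPKM in KO and 34.6, 24.2 and 25.6 FPKM in WT cochleae at 5 months.

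All 6 genes of vesicle endocytosis were lower in KO at 5 months at unadjusted p under 0.05, and 5 of 6 without E1. Over all genes the shares were 9.92% and 6.34%. Dnm3, a dynamin that cuts vesicles from the membrane, had 17.7, 16.4 and 17.5 FPKM in KO and 16.3, 19.4 and 21.6 FPKM in WT cochleae at 8 months, and 17.2, 16.1 and 17.6 FPKM in KO and 28.8, 24.9 and 22.8 FPKM in WT cochleae at 5 months. KO was below WT at 5 months with a change of -0.57 ± 0.11 (adjusted p = 0.118), and the KO libraries at the 2 ages covered nearly the same range. Dnm1, the main neuronal dynamin, had 93.5, 99.9 and 96.8 FPKM in KO and 89.1, 112 and 108 FPKM in WT cochleae at 8 months, and 88.3, 83.1 and 87.6 FPKM in KO and 128, 99.1 and 112 FPKM in WT cochleae at 5 months. Here too the 5-month groups did not overlap and the 8-month groups did. Amph, amphiphysin, which senses membrane curvature and recruits dynamin, had 33.5, 37.2 and 42.0 FPKM in KO and 38.4, 41.9 and 39.3 FPKM in WT cochleae at 8 months, and 33.7, 33.6 and 37.5 FPKM in KO and 47.1, 42.5 and 45.5 FPKM in WT cochleae at 5 months. Its highest KO library of 5 months, F19, was below the lowest WT library, E3. Bin1, a relative of amphiphysin also abundant in muscle, had the smallest change of the group, -0.19 ± 0.064.

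Snap91, the neuronal clathrin adaptor AP180, had the smallest p of the members when both ages were averaged. It lies at chromosome 9, 86659230 to 86775284 on the minus strand of mm9. Snap91 had 32.8, 31.3 and 31.0 FPKM in KO and 39.8, 38.7 and 39.3 FPKM in WT cochleae at 8 months, and 31.7, 31.9 and 35.9 FPKM in KO and 48.8, 41.0 and 39.4 FPKM in WT cochleae at 5 months. KO was below WT without overlap at either age, at 80.7% of the WT mean at 8 months and 76.9% at 5 months (82.4% without E1). Averaged over both ages its change was -0.34 ± 0.057 with an adjusted p of 0.0824, the smallest of any member in any comparison with all libraries, and it did not pass 0.05. Synj1, the lipid phosphatase synaptojanin that strips clathrin from vesicles, had 22.9, 18.1 and 22.6 FPKM in KO and 23.1, 25.4 and 25.4 FPKM in WT cochleae at 8 months, and 24.9, 21.9 and 24.6 FPKM in KO and 30.0, 26.9 and 28.3 FPKM in WT cochleae at 5 months. It also lay below WT without overlap at both ages, with changes of -0.22 ± 0.095 at 8 months and -0.25 ± 0.095 at 5 months.

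**Figure D4:**
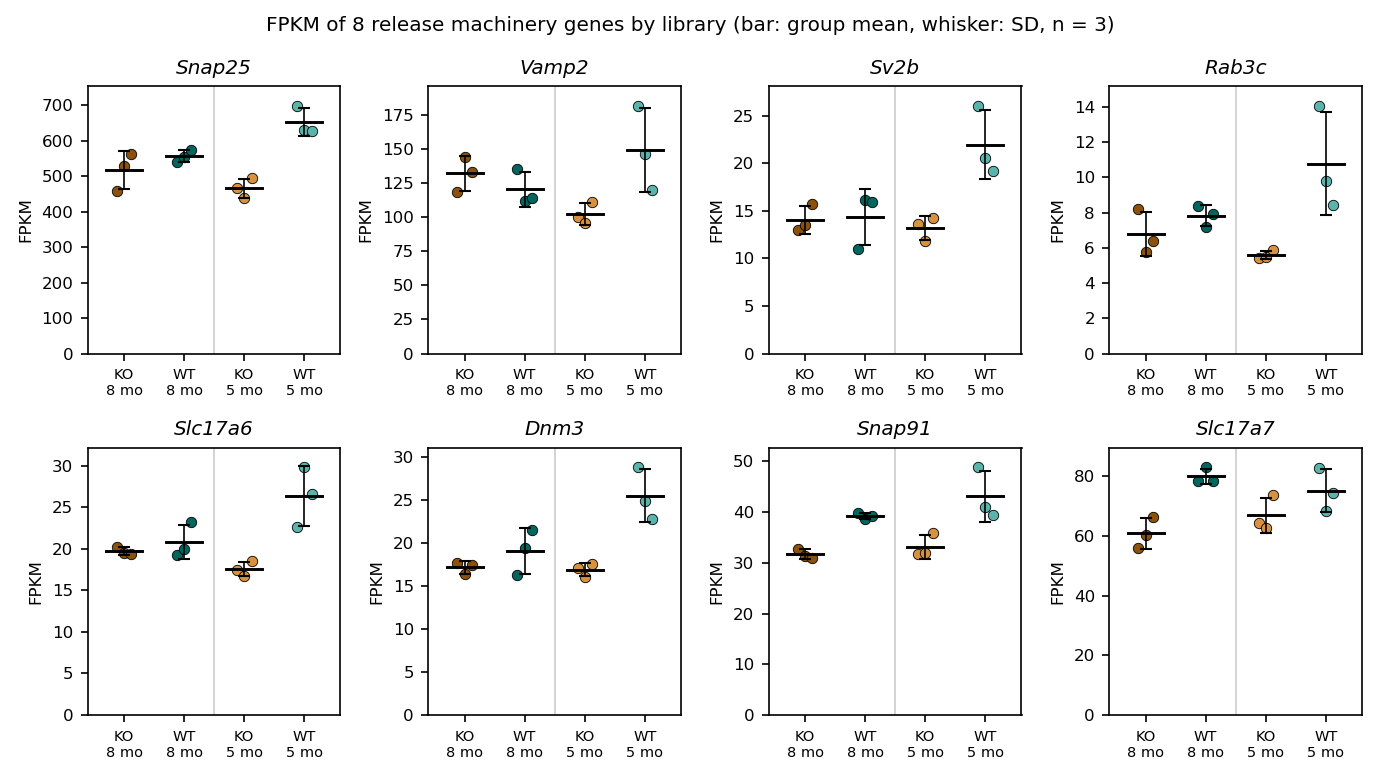
FPKM of 8 genes in each library (points), with group means (bars) and SD (whiskers, n = 3), KO left of WT at 8 and at 5 months. Snap25, Vamp2, Sv2b, Rab3c, Slc17a6 and Dnm3 separate the groups at 5 months only, Snap91 at both ages and Slc17a7 at 8 months only.

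The vesicular transporters load glutamate (Slc17a6, Slc17a7) or GABA and glycine (Slc32a1) into vesicles. Slc17a6 (VGLUT2, chromosome 7, 58877200 to 58926496 on the plus strand of mm9) had 20.2, 19.6 and 19.4 FPKM in KO and 19.3, 20 and 23.2 FPKM in WT cochleae at 8 months, and 17.5, 16.8 and 18.5 FPKM in KO and 22.6, 29.8 and 26.6 FPKM in WT cochleae at 5 months. At 5 months KO was 66.7% of WT and every KO library was below every WT library. E1 was the lowest WT library in this gene, so the change was -0.56 ± 0.10 with it (adjusted p = 0.111) and -0.67 ± 0.089 without it (adjusted p = 0.068). Slc17a7 (VGLUT1, chromosome 7, 52419291 to 52431509 on the plus strand of mm9) had 55.9, 60.4 and 66.2 FPKM in KO and 78.4, 83.0 and 78.5 FPKM in WT cochleae at 8 months, and 64.4, 62.8 and 73.6 FPKM in KO and 82.7, 68.2 and 74.5 FPKM in WT cochleae at 5 months. Its groups did not overlap at 8 months, with a change of -0.39 ± 0.090 (adjusted p = 0.57), and overlapped at 5 months, with -0.17 ± 0.090 and, without E1, -0.095 ± 0.092. Slc32a1 had 0.02, 0.105 and 0.0328 FPKM in KO and 0.0502, 0.102 and 0.0585 FPKM in WT cochleae at 8 months, and 0.0563, 0.0841 and 0.126 FPKM in KO and 10.4, 0.0663 and 0.0188 FPKM in WT cochleae at 5 months, and without E1 all values lay far under the filter, so no difference between groups could be read from it. For comparison, the hair cell transporter Slc17a8 had 3.33, 4.02 and 4.73 FPKM in KO and 3.31, 5.16 and 2.996 FPKM in WT cochleae at 8 months, and 2.89, 2.93 and 4.15 FPKM in KO and 3.55, 4.495 and 4.01 FPKM in WT cochleae at 5 months, and otoferlin (Otof), the calcium sensor of hair cells, 8.51, 11.4 and 11.96 FPKM in KO and 7.26, 14.4 and 7.09 FPKM in WT cochleae at 8 months, and 5.88, 6.25 and 11.03 FPKM in KO and 8.84, 9.63 and 8.45 FPKM in WT cochleae at 5 months. KO and WT overlapped in Otof and in Slc17a8 at both ages. In Slc17a8 at 5 months KO library F19 was above E1 and E4.

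Averaged over both ages, limma called 0 of 46 genes lower, against 0.0369% of all genes. At unadjusted p under 0.05, 27 were lower, against 9.65% of all genes, and 22 without E1, against 7.86%. The median was -0.30 against -0.016 over all genes, and -0.21 without E1. No member was higher at unadjusted p under 0.05.

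At 8 months the median change of these genes was nearer 0. In this comparison limma called 0 of 46 lower and 0 higher at adjusted p under 0.05, against 0% and 0.0123% of all genes. At unadjusted p under 0.05, 5 were lower (Slc17a7, Snap91, Sv2c, Syt11 and Synj1) and 0 higher, against 2.97% and 2.21% of all genes. KO lay below WT without overlap in 5 genes (Slc17a7, Snap91, Syt7, Syt11 and Synj1) and above it in 0, against 6.18% and 4.11% of all genes. The change was below 0 in 36, against 51.5% of all genes, with a median of -0.088 against -0.0041. Of the 5 genes lower at unadjusted p under 0.05, Snap91, Syt11 and Synj1 were also among the 30 of 5 months. The count of 5 rests on single libraries: it was 10 without F1, a WT library below the 12-library mean in 34 of the 46 genes, 3 without F6 and 2 without F12.

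The change between KO and WT was more negative at 5 than at 8 months in 42 of 46 genes, and in 32 without E1. The difference of the changes, 8 minus 5 months, is then above 0. Over all genes it was above 0 in 52.6%, and in 8324 of 16266 without E1. The 42 members also include Slc32a1 and Doc2b, which passed the filter through E1 alone. limma called 0 of 46 in either direction, against 0.00615% of all genes lower and 0% higher. At unadjusted p under 0.05, 12 were higher and 0 lower, against 3.02% and 1.66% of all genes: Snap25, Vamp2, Napb, Syp, Sv2a, Sv2b, Unc13c, Rab3c, Rph3a, Dnm3, Amph and Slc17a6. The median difference was 0.31 against 0.013 over all genes. Without E1 it was 0.16, with 9 members higher and 1 lower at unadjusted p under 0.05, against 371 and 192 of all 16266 genes. The smallest p was that of Slc17a6, with a difference of 0.49 ± 0.14, followed by Vamp2 with 0.66 ± 0.20, Napb with 0.46 ± 0.15 and Sv2b with 0.69 ± 0.23. A difference between the ages in the effect of genotype was thus not called for any member.

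Between ages, no member was called within a genotype. In KO cochleae, 8 against 5 months, limma called 0 of 46, as it called 0% of all genes in either direction. At unadjusted p under 0.05, 5 members were higher (Vamp2, Napa, Syt5, Syp and Rab3a) and 0 lower, against 8.85% and 3.76% of all genes, so the share was close to that of all genes. The median was 0.10 against 0.015. In KO cochleae 10 members were higher at 8 months without overlap, against 11.1% of all genes, and 1, Syt2, was lower, against 4.59%. In WT cochleae limma called 0 of 46, against 0% of all genes lower and 0.0123% higher. There 10 members were lower at 8 months at unadjusted p under 0.05 and 0 higher, against 3.56% and 4.29% of all genes, with a median of -0.22 against 0.018. In WT cochleae 11 members were lower at 8 months without overlap, against 8.81% of all genes. Without E1 the count at unadjusted p became 6, against 2% of all genes, and the median -0.067. All WT libraries of 5 months are coded E and all of 8 months F. The meaning of the letter is not stated, and letter and age cannot be told apart in WT. Letter is also partly mixed with genotype at 5 months, whereas all libraries of 8 months are coded F.

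The other genes of the pathway were taken from a second list of 62 genes, of which 56 passed the filter. At 5 months 42 of 56 had a change below 0, against 55.3% of all genes, with a median of -0.15. Without E1 there were 39, against 54.8% of all genes, with a median of -0.12. With all libraries limma called 0, against 0.043% of all genes lower and 0.0246% higher. At unadjusted p under 0.05, 16 of the 56 were lower and 5 higher, against 9.92% and 8.24% of all genes. Without E1, 12 were lower and 3 higher, against 6.34% and 5.57% of all genes. Among those with the smallest p were Cadps, which primes dense-core vesicles, at -0.49 ± 0.082 and Sh3gl2 (endophilin), which works with synaptojanin, at -0.47 ± 0.092. At 8 months 1 of 56 was lower and 0 higher at unadjusted p under 0.05, against 2.97% and 2.21% of all genes. The median was -0.038. The second list contains many forms used outside neurons, such as Vamp3, Snap23 and Dnm2.

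Marker lists of cells in and around the cochlea were read beside these genes, first at 5 months. The 18 markers of spiral ganglion neurons had a median change of -0.19, with 16 below 0 and 6 lower at unadjusted p under 0.05. Over all genes the shares were 55.3% and 9.92%. Without E1 the markers numbered 15 and 5, against 54.8% and 6.34% of all genes. At 8 months 16 of the 18 were below 0 as well, against 51.5% of all genes, with a median of -0.15. Of these markers, 1 was lower at unadjusted p under 0.05 at 8 months, against 2.97% of all genes. Their summed level was 2224 to 2450 FPKM in KO and 2359 to 2597 FPKM in WT cochleae at 8 months, and 1864 to 2150 FPKM in KO and 2157 to 2322 FPKM in WT cochleae at 5 months. At 5 months the 9 hair cell markers summed to 104 to 126 FPKM in KO and 112 to 137 FPKM in WT, with overlap. Of these, 8 had a change below 0, against 55.3% of all genes. At unadjusted p under 0.05, 0 were lower and 1 higher, against 9.92% and 8.24% of all genes. This 1 was Myo7a, with 5.735, 4.64 and 7.06 FPKM in KO and 3.07, 3.21 and 3.27 FPKM in WT, without overlap. Its change was 0.76 ± 0.16, and 0.23 ± 0.16 at 8 months. The 7 Schwann cell markers summed to 1284 to 1866 FPKM in KO and 1420 to 1900 FPKM in WT at 5 months, with overlap. Their median change was -0.046, with 0 of 7 at unadjusted p under 0.05. The 8 markers of oligodendrocytes and astrocytes summed to 83.4 to 127 FPKM in KO and 105 to 187 FPKM in WT cochleae at 5 months. All 8 had a change below 0 with E1 and without it, against 55.3% and 54.8% of all genes. At 8 months all 8 were below 0 as well, against 51.5% of all genes. Their median was -0.57 at 5 months and -0.29 at 8 months. The hair cell markers had a median of 0.088 at 8 months and the Schwann cell markers 0.055.

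Blood cell markers had larger changes at 5 months. All 15 neutrophil markers were higher in KO at 5 months at unadjusted p under 0.05, against 8.24% of all genes. Their summed levels were 4180 to 23050 FPKM in KO and 90.7 to 698 FPKM in WT cochleae. The 9 B cell markers (33.3 to 147 FPKM in KO and 9.86 to 18.2 FPKM in WT) and the 6 platelet markers (152 to 740 FPKM in KO and 31.7 to 41.2 FPKM in WT) were also all higher. Without E1, 13 of the 15 neutrophil markers, 8 of the 9 B cell markers and all 6 platelet markers were higher at unadjusted p under 0.05. The share over all genes was then 5.57%. Neutrophil markers made up 0.752 to 4.2% of all FPKM in KO and 0.0175 to 0.135% in WT cochleae at 5 months. With each library scaled by its median ratio, the median of the 46 genes was -0.39. Such scaling moves all genes of a library alike, so it cannot remove a difference in cell types. At 8 months the 3 KO libraries had neutrophil sums of 16902 FPKM in F5, 910 FPKM in F6 and 1297 FPKM in F27, and the median of the 46 genes relative to the mean of 12 libraries was -0.085, -0.072 and -0.093 in these libraries. Muscle markers summed to 6.68 to 968 FPKM in KO and 21.1 to 1336 FPKM in WT cochleae at 5 months, with overlap. The part of these cell types in the change of the release genes was not tested.

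**Figure D5:**
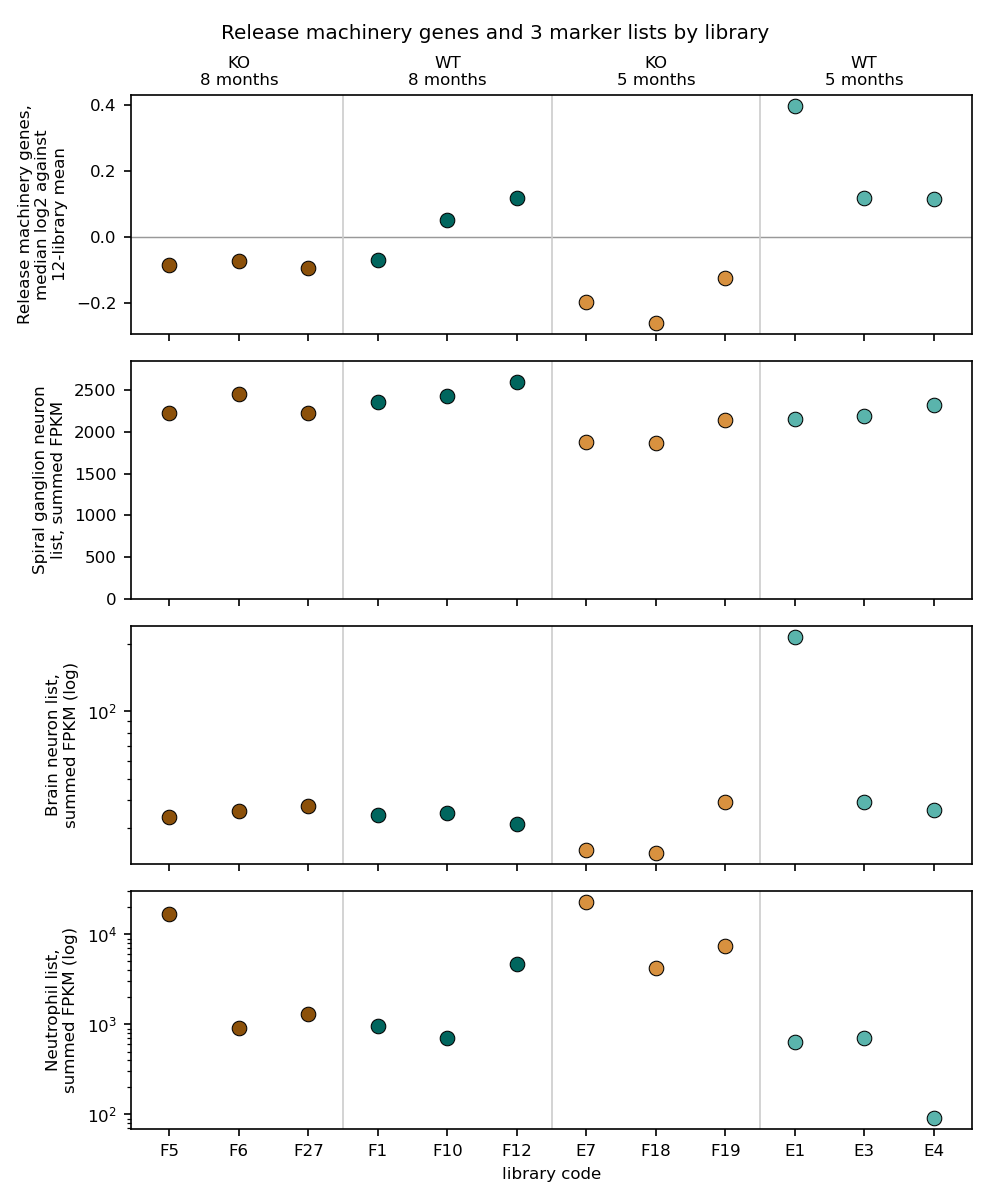
For each library (horizontal axis, KO left of WT at each age), the median of the 46 genes relative to their 12-library mean (log2), and the summed FPKM of markers of spiral ganglion neurons (linear axis), brain neurons and neutrophils (log axes). E1 is highest in the panels of the 46 genes and of brain neurons, at 0.397 and 215 FPKM, and the 3 KO libraries of 5 months are lowest in the panel of the 46 genes, at -0.26 to -0.12.

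Some values carry a limit of the counting. The exons of Doc2a, Syn1, Sv2b, Rab3a and Synj1 overlap those of a gene on the opposite strand in the deposited gene models, and the sources used here do not say whether reads were counted by strand. The aligner allowed a read up to 5 places, so close relatives such as Vamp1 and Vamp2 or the Sv2 genes may share reads.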

How the data were processed

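RNA of whole cochleae, kept in RNAlater, was made by the authors into stranded polyA libraries and sequenced as single ends of 50 bases (HiSeq2000). Per the submitters' notes and the methods, reads were checked with FastQC 0.10.1 and placed on mm9 by TopHat2 2.0.10, allowing 2 mismatches and 5 multiple hits, together with Bowtie 1.0.0 and with SAMtools 0.1.19. The deposited values are FPKM per gene and library, which the authors took from Cufflinks 2.2.1. The deposited comparison files also hold the authors' fold changes and p-values, which were not used.

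Many deposited FPKM had lost their decimal point. For each gene and group the point was placed so that the 3 values average to the authors' group FPKM within a relative tolerance of 2e-05. Of 23951 genes, 46 could not be settled and were left out, none of them a gene described here, and 55.29% of all values were changed by this step. Libraries were otherwise left as deposited.

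Tests used limma 3.58.1 in R 4.3.3 with a variance trend, tested on simulated data first. One fit of all 4 groups took log2(FPKM + 0.5) of 16266 genes, those averaging 0.5 FPKM or more across libraries, and fold changes are on that scale, which understates low genes. P-values were adjusted over all these genes (Benjamini-Hochberg, threshold 0.05). A count at unadjusted p under 0.05 is a description. No single-gene permutation test was run, since 3 against 3 libraries cannot give a p under 0.1. The members, the lists and the rule for named genes (all members by role, values in every library for the smallest p per comparison, the highest levels and the transporters, and the 3 genes of the second list with the smallest p at 5 months) were chosen with earlier results of these data known. Other members whose libraries are listed, such as Unc13a, Unc13c and Syt7, were chosen after their values were seen. A gene of the second list that the rule names is not reported here. Alternatives changed the pseudocount, filter, scaling, trend, weights, groups fitted and sex term, and left out each library. Tables and plots used Python 3.11.15, NumPy 2.4.6, pandas 2.3.3 and Matplotlib 3.10.9.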

Additional observations from a re-analysis of the deposited data

Results flagged for a closer look

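Unc13c, the priming factor, was the only member that moved in opposite directions with age in the 2 genotypes without overlap of the libraries. It had 1.33, 1.21 and 1.36 FPKM in KO cochleae at 8 months and 1.09, 0.881 and 1.06 FPKM in KO cochleae at 5 months, every older library above every younger one. In WT cochleae it had 0.769, 1.19 and 1.51 FPKM at 8 months and 5.45, 1.84 and 1.63 FPKM at 5 months, every older library below every younger one. The change of KO against WT at 8 months minus that at 5 months was 1.18 ± 0.48 on the log2 scale, with an adjusted p of 0.877 in limma, so this difference was not called. The value of 5.45 FPKM belongs to E1.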

How the results depend on the processing

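No member was called at adjusted p under 0.05 in any comparison under any alternative run, and no median turned its sign. Leaving out each library in turn gave medians of -0.48 to -0.28 for KO against WT at 5 months, -0.16 to -0.049 at 8 months, 0.16 to 0.40 for the difference between the ages, 0.077 to 0.15 for 8 against 5 months in KO and -0.26 to -0.067 in WT, and the values nearest 0 at 5 months, between the ages and in WT were those without E1. Members lower at unadjusted p under 0.05 then numbered 21 to 32 for KO against WT at 5 months, 2 to 10 at 8 months (10 without F1, 3 without F6, 2 without F12), 6 to 14 for 8 against 5 months in WT (6 without E1), 0 to 2 in KO (2 without F5) and 0 to 1 for the difference between the ages (1 without F27 or E1). Members higher numbered 1 to 6 for 8 against 5 months in KO (1 without F6, 3 without E7 and 3 without F18), 0 to 1 in WT (1 without F10) and 0 to 1 for KO against WT at 8 months (1 without F5). For 8 against 5 months in KO, 10 were higher with the 2 groups alone, and 2 were lower with array weights, 2 with median ratio scaling and 1 with quantile scaling. In WT 1 was higher with array weights and 1 with no variance trend, and for the difference between the ages 1 was lower with array weights. The cause was not tested. No paired analysis was possible because the labels give no replicate number that groups share. FPKM hold no read numbers, so what depth limits cannot be given.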
